A study of Mus musculus with 2 samples.

Results

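The molecular clock of mammals is a feedback loop of transcription. The proteins of Arntl (also called Bmal1) and Clock pair up, bind E-box elements and switch on the Per, Cry, Nr1d and Dbp genes, whose products act back on the loop. PER and CRY proteins repress the activating pair, the REV-ERB receptors made from Nr1d1 and Nr1d2 repress Arntl, and the DEC protein of Bhlhe40 competes for E-boxes. In mouse neutrophils the clock is known for its tie to ageing, the daily course in which cells released from the marrow gain CXCR4 under CXCR2 signals.

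The 9 clock genes Arntl, Clock, Per1, Per2, Cry1, Nr1d1, Nr1d2, Dbp and Bhlhe40 were read by gene symbol from expression tables of 35522 features. Neutrophils were sorted from the bone marrow of Balb/C mice as CD11b-positive cells with high Ly6G and low or no Ly6C. They were grown in RPMI-1640 medium with 10 ng/ml GM-CSF, a myeloid growth factor present in both cultures, and received either PBS or 20 μg/ml tumor exosomes for 3 days. The exosomes came from sphere-derived cancer stem cells (SDCSCs), spheres that the mouse colon carcinoma line CT26 forms in medium without serum. Each treatment had 1 mRNA library, so no value below has a replicate error and no p-value is given. Whether RNA of several mice was pooled and at what hour the cells were taken are not given in the sources used here, and a single harvest holds no information on rhythm or phase.

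Levels are RPKM, the reads of a gene scaled by exon length and by the mapped reads of its library. About 66.0 M mapped reads (M, mega) stood behind the PBS library and 79.1 M behind the exosome library, as estimated from values that equal a single read. Cells matched their label in part. Of 10 neutrophil markers, led by S100a8 and S100a9, 9 were at least 2-fold lower with exosomes. Among all 9698 genes with at least 0.25 RPKM in both libraries, 5.62% were down by this rule. The other marker, Elane, was at 2.64 RPKM in PBS and 3.31 with exosomes. In sum the neutrophil list fell from 82880 to 29772 RPKM. All 10 monocyte or macrophage markers were higher with exosomes, with a sum of 164 RPKM in PBS and 459 with exosomes, and none of them was at 0 in either library. The 3 B cell markers summed to 70.5 and 44.6 RPKM. The 5 markers of colon carcinoma cells summed to 0.59 and 0.205 RPKM, with Krt8 at 0 in both libraries. Their part in the values below was not tested, and fewer cells of a type cannot be told apart from less RNA per cell.

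Exosome treatment came with a rise of at least 2-fold in 3 clock transcripts, those of Per2, Cry1 and Clock. The other 6 stayed within 2-fold and none was 2-fold lower. All 9 had an RPKM of at least 0.25 in both libraries, the level at which a gene was kept. The share of 3 in 9 (33.3%) stood beside 31.5% of all 9698 genes kept that were up by the same rule, and 5.62% of them were down. The clock genes as a group therefore were called up about as often as genes at large. Their median log2 ratio of exosome to PBS was 0.19, against 0.53 over all genes kept, and only Per2, Cry1 and Clock lay above that overall median.

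Before the levels, the promoter windows of clock genes are shown, since E-boxes are the elements through which ARNTL and CLOCK act. A window runs from 250 bases before to 50 bases after a start site in RefSeq (GRCm38.p6). Windows were matched for 7 members, with 11 start sites, and for 18 of 23 other clock genes, with 25. The members Per2 and Bhlhe40 had no window, so they could not be searched. The letters searched on both strands were CACGTG (E-box), CACGTT (a second form of the E-box), TTATGTAA or TTATGCAA (D-box, bound by DBP and its relatives), ANTNGGTCA (bound by REV-ERB and ROR receptors) and TGACGTCA (cAMP response element). The lines below give windows of Cry1 and Clock, members that were up, of Gm129 (current symbol Ciart), a repressor of the activating pair that was also up, and of Per1 and Arntl, which stayed within 2-fold. The last 3 were chosen for display after their values and matches were seen. Capitals mark a match, and each window reads in the direction of its gene: Cry1 from chr10:85185005-85185304 (minus strand), Clock from chr5:76304743-76305042 (minus), Gm129 from chr3:95882179-95882478 (minus), Per1 from chr11:69098699-69098998 (plus) and Arntl from chr7:113207261-113207560 (plus).
Cry1: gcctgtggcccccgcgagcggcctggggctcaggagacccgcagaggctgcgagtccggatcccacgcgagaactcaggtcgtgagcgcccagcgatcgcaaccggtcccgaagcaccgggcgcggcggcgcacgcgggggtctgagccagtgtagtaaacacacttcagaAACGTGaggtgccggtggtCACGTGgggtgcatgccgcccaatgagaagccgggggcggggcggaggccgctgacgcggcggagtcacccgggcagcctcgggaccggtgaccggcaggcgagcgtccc
Clock: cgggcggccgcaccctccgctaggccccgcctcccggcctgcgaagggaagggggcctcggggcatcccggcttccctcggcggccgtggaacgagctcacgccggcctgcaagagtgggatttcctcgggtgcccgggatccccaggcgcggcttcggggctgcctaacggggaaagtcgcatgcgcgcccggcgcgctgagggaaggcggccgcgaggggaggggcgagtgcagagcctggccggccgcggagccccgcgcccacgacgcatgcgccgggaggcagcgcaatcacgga
Gm129: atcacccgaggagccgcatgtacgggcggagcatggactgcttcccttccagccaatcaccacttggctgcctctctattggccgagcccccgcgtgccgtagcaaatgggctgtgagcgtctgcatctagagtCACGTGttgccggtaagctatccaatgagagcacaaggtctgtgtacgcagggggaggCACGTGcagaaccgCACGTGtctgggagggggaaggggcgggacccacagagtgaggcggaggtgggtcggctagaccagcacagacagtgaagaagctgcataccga
Per1: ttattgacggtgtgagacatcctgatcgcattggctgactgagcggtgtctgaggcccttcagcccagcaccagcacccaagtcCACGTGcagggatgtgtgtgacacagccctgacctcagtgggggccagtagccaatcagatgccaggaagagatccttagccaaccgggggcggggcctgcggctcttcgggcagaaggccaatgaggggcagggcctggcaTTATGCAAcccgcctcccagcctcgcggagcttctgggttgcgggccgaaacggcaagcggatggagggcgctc
Arntl: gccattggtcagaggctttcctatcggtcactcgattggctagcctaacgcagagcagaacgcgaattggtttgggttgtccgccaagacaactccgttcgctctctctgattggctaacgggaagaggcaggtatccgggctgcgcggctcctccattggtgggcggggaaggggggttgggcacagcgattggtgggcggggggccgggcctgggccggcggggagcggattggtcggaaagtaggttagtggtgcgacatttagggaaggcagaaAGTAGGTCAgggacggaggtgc

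The Cry1 window held CACGTG 60 bases before the start and the second form, read as AACGTG, 79 bases before it. The Gm129 window held CACGTG at 116, 58 and 44 bases before the start. In the Per1 window CACGTG stood 166 bases before the start and the D-box TTATGCAA 24 bases before it. The Arntl window held the receptor element as AGTAGGTCA, from base 29 of the transcript. None of the 3 Clock windows held any of these letters, nor did those of Nr1d2 and Dbp, while Nr1d1 held AACGTG 28 bases before its start. Introns and bases further from a start were not searched, so a window without a match does not mean a gene without E-boxes.

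Across all 32851 windows, CACGTG was found in 7.15%, CACGTT in 4.68%, a D-box in 1.66%, the receptor element in 2.24% and the cAMP response element in 1.79%. CACGTG was found in windows of 2 members, Cry1 and Per1, and of 3 other clock genes, Gm129, Tef and Bhlhe41. Per1 was the only one of these that was not up at least 2-fold. Clock and Cry2 were up without CACGTG in their windows, and Per2 and Tipin were up but had no window to search. Over the genome the letters marked little difference. Of 964 genes kept that had CACGTG in a window 33.4% were up, and of 6908 genes with a window that lacked it 31.8%.

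The activating pair did not move together. Clock (chromosome 5, 76209868 to 76304792, minus strand, GRCm38) encodes a histone acetyltransferase and DNA-binding subunit, and had an RPKM of 1.72 in PBS and 3.49 with exosomes. The ratio was 2.03 and the log2 ratio 1.02, with a 95% counting interval of 0.92 to 1.12 that includes the 2-fold limit. Arntl (chromosome 7, 113207465 to 113314126, plus strand), the partner without which the loop stops, was listed at 0.39 RPKM in both libraries. About 103 and 123 reads lay behind the values of Arntl, and the counting interval of its log2 ratio, -0.40 to 0.39, leaves out a 2-fold change in either direction. Clock was thus the more abundant transcript per length, by 4.41 times in PBS and 8.95 times with exosomes.

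**Figure D1:**
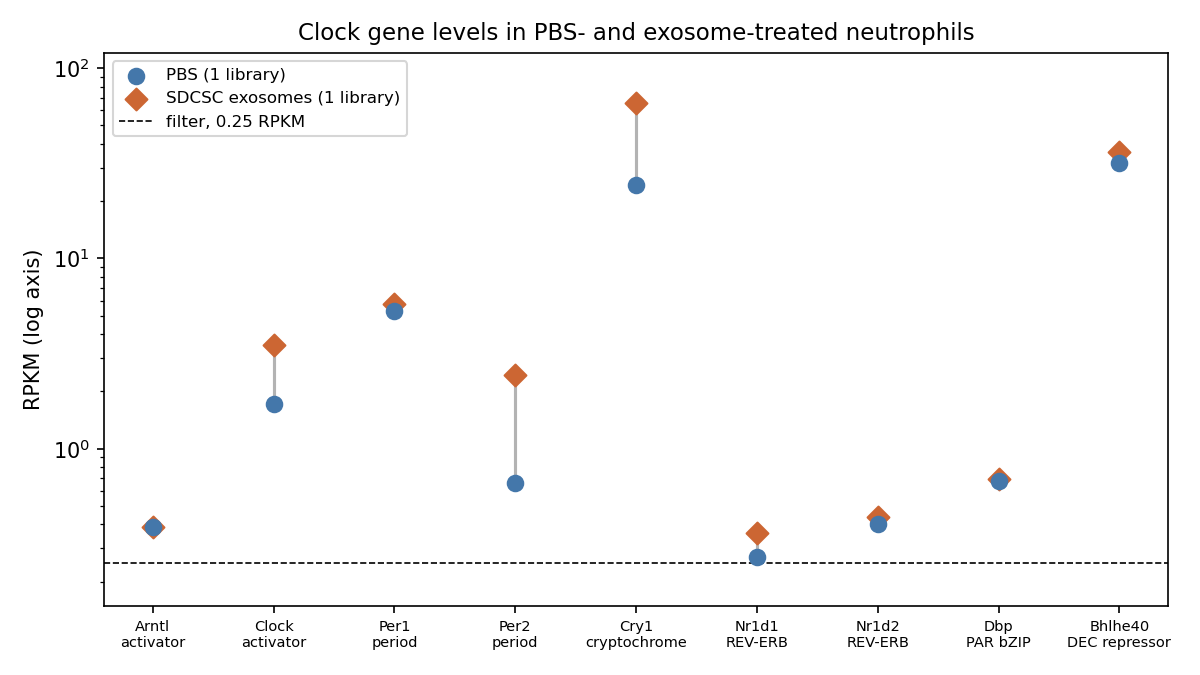
Level of each of the 9 clock genes in RPKM on a log axis, with circles for the PBS library, diamonds for the exosome library and a dashed line at the filter of 0.25 RPKM. Cry1 and Bhlhe40 sit far above the other genes, and the gap between the symbols is widest for Per2, from 0.66 to 2.44 RPKM.

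The paralogues of these subunits were low. Npas2, which can replace CLOCK, was at 0.13 RPKM in PBS and 0.05 with exosomes, and Arntl2, which can replace ARNTL, was at 0.48 and 0.15. Both were lower with exosomes, at log2 ratios of -1.38 and -1.68, but neither was kept, since their exosome values lay under 0.25 RPKM.

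Both cryptochrome genes were higher with exosomes. Cry1 (chromosome 10, 85131700 to 85185064, minus strand) encodes the strongest repressor of the activating pair. Its level was 24.39 RPKM in PBS and 65.48 RPKM with exosomes. The log2 ratio was 1.42 (counting interval 1.38 to 1.47). Its paralogue Cry2 rose from 0.98 to 2.46 RPKM, a log2 ratio of 1.33 (1.12 to 1.54). The level of Cry1 was 24.9 times that of Cry2 in PBS and 26.6 times with exosomes, so the cryptochromes kept their proportion while both rose.

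The period genes, whose proteins carry the cryptochromes into the nucleus, diverged. Per1 (chromosome 11, 69095217 to 69109960, plus strand) had 5.3 RPKM in PBS and 5.78 with exosomes, a log2 ratio of 0.13 (0.03 to 0.22). Per2 (chromosome 1, 91415982 to 91459324, minus strand) went up from 0.66 to 2.44 RPKM, the largest change among the 9, with a log2 ratio of 1.89 (1.69 to 2.09). Per3, the least essential of the family, was at 0.39 and 0.51 RPKM, a log2 ratio of 0.39. The Per1 transcript was 8.03 times as abundant as that of Per2 in PBS and 2.37 times with exosomes. Per1 nevertheless remained the higher of the pair in each library.

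The genes of the REV-ERB receptors, which are transcribed from E-boxes and silence Arntl, were the lowest of the 9 together with Arntl. Nr1d1 (chromosome 11, 98767932 to 98775333, minus strand) stood at 0.27 RPKM in PBS and 0.36 with exosomes, from about 48 and 77 reads. Its counting interval of -0.12 to 0.97 around a log2 ratio of 0.42 includes a ratio of 1, so a change was not detectable at this depth. Nr1d2 (chromosome 14, 18204054 to 18239127, minus strand) stood at 0.4 and 0.44 RPKM, a log2 ratio of 0.14 (-0.21 to 0.48). Rora, which encodes an opposing activator of Arntl, was barely detected, at 0.02 RPKM in both libraries.

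Dbp (chromosome 7, 45705088 to 45710203, plus strand) encodes a PAR bZIP factor and is a textbook readout of the loop, since its E-boxes make it swing widely in most tissues. Dbp was at 0.68 RPKM in PBS and 0.69 with exosomes, a log2 ratio of 0.02 (-0.41 to 0.46) from about 82 and 100 reads. Tef, a relative that binds the same D-boxes, rose from 0.82 to 3.11 RPKM (log2 ratio 1.92). Hlf, the remaining member of that family, was under the filter at 0.17 and 0.06 RPKM. Nfil3, which represses through D-boxes, was far higher than any of them, at 34.82 and 44.94 RPKM, with a log2 ratio of 0.37.

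Values of Dbp and Nr1d1 carry a further limit. Dbp shares 539 exon bases (18% of its annotated exon bases) with Sphk2 on the opposite strand, which was at 14.01 and 13.75 RPKM. Nr1d1 shares 263 bases (8.5%) with Thra on the opposite strand, at 4.62 and 5.32 RPKM. Use of strand in the counting is not stated, so reads of these neighbours cannot be told apart from those of the clock genes there. Both neighbours were far higher than the clock genes, Dbp at 0.68 and 0.69 RPKM and Nr1d1 at 0.27 and 0.36. The share of the neighbours in the listed values was not tested, and the length of the overlap does not give it.

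Bhlhe40 (chromosome 6, 108660629 to 108666925, plus strand), which encodes DEC1, a repressor also induced by hypoxia and cytokines, was the highest clock gene in PBS at 31.78 RPKM and had 36.3 RPKM with exosomes. Its log2 ratio was 0.19 (0.15 to 0.24). The paralogue Bhlhe41 rose from 0.37 to 0.78 RPKM, a log2 ratio of 1.08 whose interval of 0.79 to 1.35 includes the 2-fold limit. With 48.5% and 37.2% of the summed RPKM of the 9 genes in PBS, Bhlhe40 and Cry1 outweighed all others. With exosomes the order of this pair turned, to 31.5% for Bhlhe40 and 56.8% for Cry1, and the sum of the 9 genes went from 65.59 to 115.37 RPKM, mostly through Cry1. Summed by family, the cryptochromes had 2.68 times their PBS level with exosomes, Dbp with Tef and Hlf 2.31 times, Arntl with Clock and Npas2 1.75 times, the period genes 1.37 times, the REV-ERB genes 1.19 times and the DEC genes 1.15 times. Read against all features detected in the library, Cry1 moved from the 87.0th to the 94.4th percentile of level and Bhlhe40 stayed at the 89.5th, whereas Per1 went from the 67.0th to the 61.4th.

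**Figure D2:**
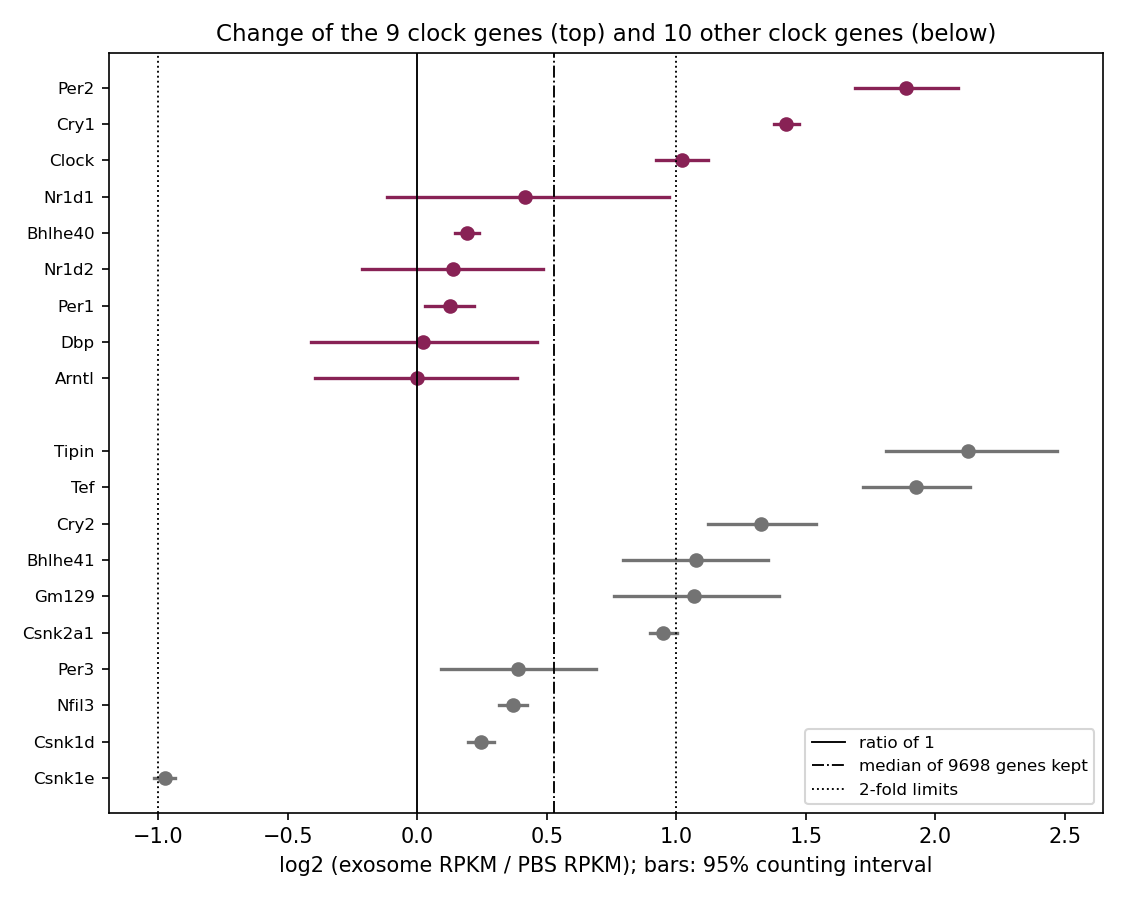
Log2 ratio of exosome to PBS RPKM for the 9 clock genes and for 10 other clock genes named in the text, with bars for the 95% counting interval, dotted lines at 2-fold and a dash-dotted line at the median of all genes kept (0.53). Per2, Cry1 and Clock lie right of that median, and the remaining 6 clock genes lie left of it.

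Below these leaders the order of levels changed little. In PBS it ran Bhlhe40, Cry1, Per1, Clock, Dbp, Per2, Nr1d2, Arntl and Nr1d1, and with exosomes Cry1 passed Bhlhe40 and Per2 passed Dbp. Neighbours at the low end are close: in PBS, Per2 and Dbp differed by 0.02 RPKM and Nr1d2 and Arntl by 0.01, no more than a few steps of the rounding to 0.01. Of the 3 genes that were up, Clock belongs to the activating pair and Per2 and Cry1 to the repressing arm.

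The shift of the whole library depended on the level of a gene, so each clock gene was also read beside genes of like mean RPKM. Among 2950 genes with a mean from 1 to 5 RPKM the median log2 ratio was 1 and 50.2% were up. Clock, at 1.02, lay at the 50.8th percentile of this bin, which is its middle, and Per2 at the 79.1th. Among 2989 genes from 10 to 50 RPKM the median was 0.31 and 18.4% were up. Cry1 lay at the 91.1th percentile of that bin and Bhlhe40 at the 42.2th. Per1 lay at the 20.8th percentile of 1556 genes from 5 to 10 RPKM, whose median was 0.67. The 4 low genes, Arntl, Dbp, Nr1d2 and Nr1d1, lay between the 31.6th and 47.6th percentile of 1104 genes from 0.25 to 1 RPKM (median 0.48). Beside its level bin Cry1 was therefore the clock gene of highest percentile and Per1 that of the lowest.

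**Figure D3:**
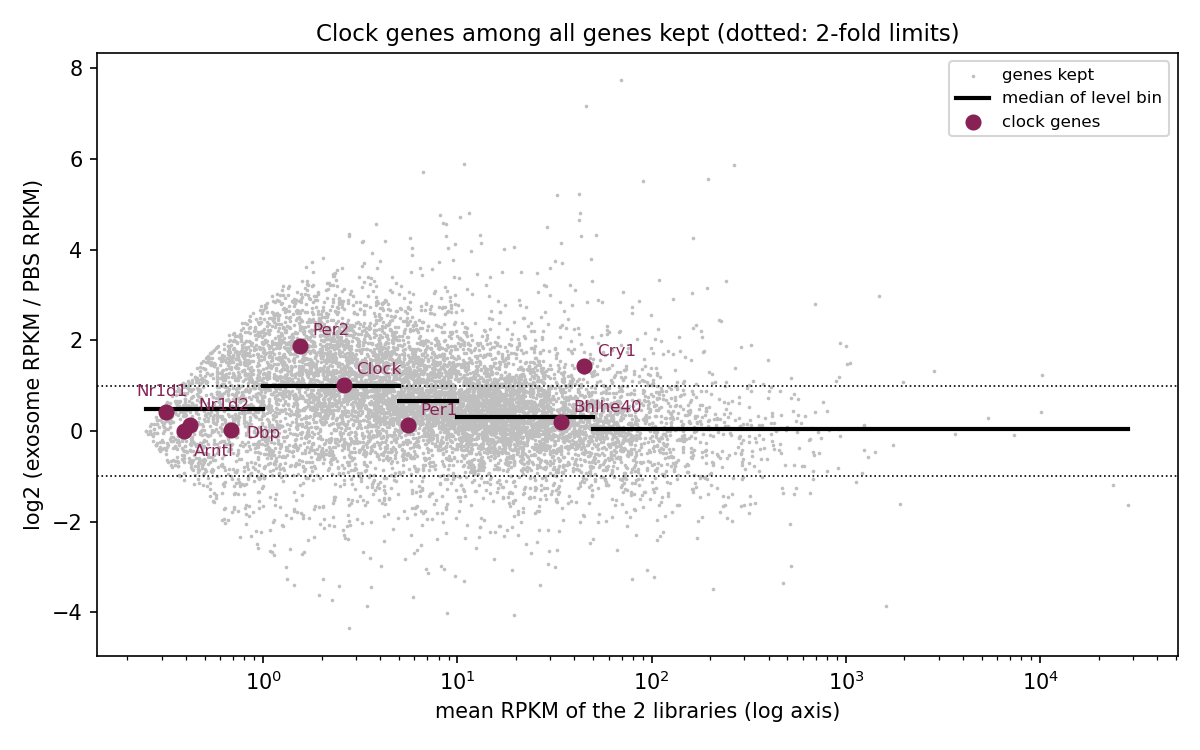
Log2 ratio of exosome to PBS RPKM against the mean RPKM of both libraries (log axis) for 9698 genes kept (grey), with the clock genes as large points and black lines at the median of each level bin. Clock sits on the line of its bin at 1, Per2 and Cry1 lie above theirs, and the other 6 lie below.

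The scaling of the libraries decides how the calls read. With the median of all genes set to 0, Per2 alone passed the 2-fold limit, and with the median of each level bin set to 0 Cry1 alone did, a setting chosen after the values were seen. Under either setting the log2 ratios of Arntl, Per1, Nr1d1, Nr1d2, Dbp and Bhlhe40 were negative. By the 2-fold rule the genes at large split into 3056 up and 545 down as deposited, and into 1634 up and 1282 down once their median was set to 0.

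Ratios between clock genes of the same library do not depend on a factor that scales the whole library. Centring within level bins does move them where the genes lie in different bins, and it turned the order of Cry1 and Per2, whose log2 ratios were then 1.11 and 0.89. Of 7 such ratios, Per1 to Per2 changed most, by -1.76 on the log2 scale (exact counting interval -1.98 to -1.54). Clock to Per1 rose from 0.325 to 0.604, whereas Clock to Per2 went from 2.61 to 1.43, since Per2 gained more than Clock and Per1 less. Cry1 to Per2 went from 37.0 to 26.8 (log2 change -0.46, interval -0.67 to -0.26). For Arntl to Nr1d1 (1.44 and 1.08), Arntl to Dbp (0.574 and 0.565) and Nr1d1 to Nr1d2 (0.675 and 0.818) the interval of the change includes 0. The widest of these, for Arntl to Nr1d1, runs from -1.11 to 0.25.

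A further 4 ratios were formed after the members' values in these libraries were seen. Clock to Arntl changed by 1.02 (0.62 to 1.43) and Cry1 to Per1, from 4.60 to 11.3, by 1.30 (1.20 to 1.40). Cry1 to Clock changed by 0.40 (0.29 to 0.52). The interval for Cry1 to Cry2, -0.12 to 0.31, includes 0. Intervals cover counting error and leave out variation between cultures.

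**Figure D4:**
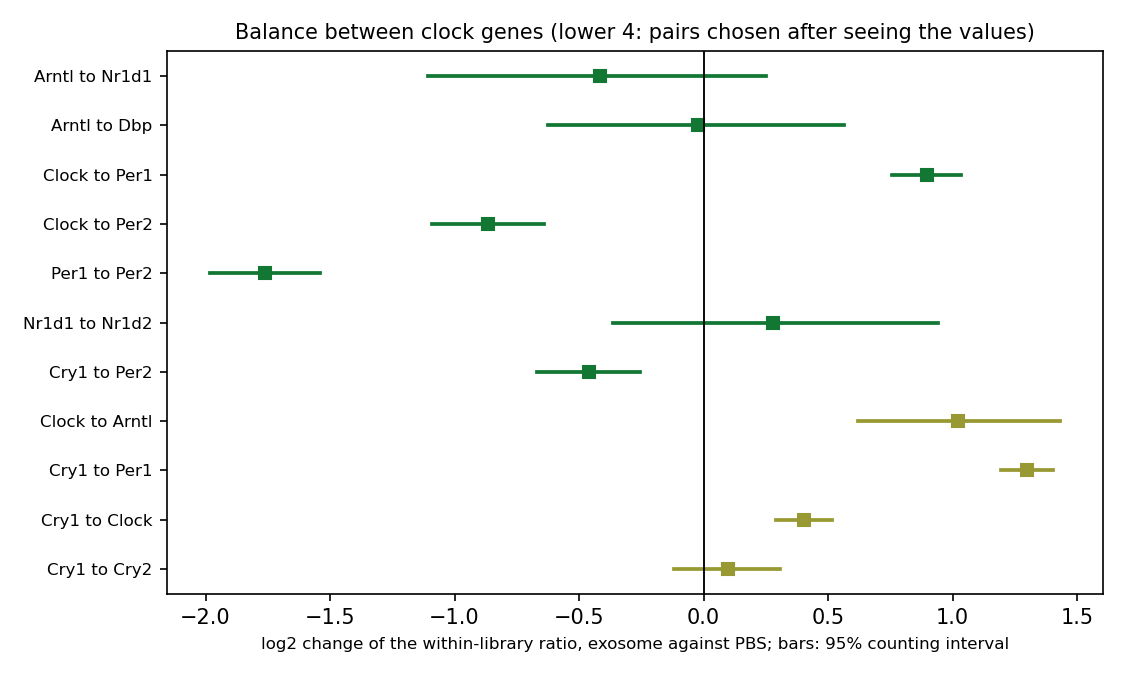
Log2 change, exosome against PBS, of 11 ratios between clock genes of the same library, with bars for the 95% counting interval. Per1 to Per2 lies furthest left at -1.76 and Cry1 to Per1 furthest right at 1.30, while the bars of 4 ratios cross 0.

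The rest of the clock machinery was described by a list of 23 other clock genes, of which 15 were kept. Of these, 5 (33.3%) were up, 0 were down and 10 stayed within 2-fold, beside 31.5% up among all genes kept. The median log2 ratio was 0.39. Besides Cry2, Tef and Bhlhe41, the genes up were Gm129, from 0.91 to 1.91 RPKM (log2 ratio 1.07, interval 0.76 to 1.40), and Tipin, a partner of the replication and clock protein TIMELESS, from 0.76 to 3.32 (2.13). Each of these 5 genes was under 1 RPKM in PBS.

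Kinases of the loop set the lifetime of its repressors, and the kinase genes kept stayed within 2-fold. Csnk1e, a kinase that marks PER proteins for decay, was at 63.74 RPKM in PBS and 32.42 with exosomes. Its log2 ratio of -0.98 was just short of the 2-fold limit, which its interval of -1.02 to -0.94 includes. Its partner kinase gene Csnk1d had a log2 ratio of 0.25. Csnk2a1, a further kinase gene, at 16.15 and 31.19 RPKM, had a log2 ratio of 0.95. These 3 genes were named after their values were seen.

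The clock of neutrophils is tied to ageing and to inflammatory genes that REV-ERB receptors hold down, and 15 genes of these kinds were listed. Of 12 kept, 2 were up (beside 31.5% of all genes kept) and 4 were down (beside 5.62%), Cxcr2, Cxcr4 and Itgax among them, and the median log2 ratio was -0.49. The chemokine receptor genes Cxcr2 and Cxcr4 had log2 ratios of -1.26 and -1.78. Cxcr2 is also one of the 10 neutrophil markers, 9 of which were at least 2-fold lower, and their part in its change was not tested. Itgax, which encodes an integrin chain and also stands among the dendritic cell markers, fell from 8.98 to 4.19 RPKM. The sum of those 4 markers went from 9.28 to 4.51 RPKM and was mostly Itgax itself. Of the 4 markers, 2 were higher with exosomes, and 3 were under 0.25 RPKM in both libraries. The genes up were Il1b (log2 ratio 1.08) and Cd47, which encodes a signal against engulfment (26.13 to 57.91 RPKM). Cxcl2, a gene that ARNTL is known to drive in neutrophils, was at 366.71 and 346.81 RPKM, a log2 ratio of -0.08, and is named here after its values were seen.

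Of the genes that REV-ERB receptors are known to repress in myeloid cells, 3 were not kept. Cx3cr1 was at 0.1 and 1.39 RPKM and Ccl2 at 0.13 and 1.72, whereas Il6 was at 0.24 and 0.1. Nlrp3 and Mmp9 had log2 ratios of -0.49 and -0.48. These genes did not share a direction, Ccl2, Il6, Nlrp3 and Mmp9 were named after their values were seen, and Cx3cr1 is also one of the monocyte or macrophage markers whose sum was higher with exosomes.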

How the data were processed

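Total RNA of PBS-treated and exosome-treated neutrophils was sequenced from mRNA libraries, 1 per group. Per the file headers the deposited values are RPKM: the authors removed bases of low quality, used CLC Genomics Workbench and scaled reads by exon length and mapped reads. The submitters' processing notes name mm10. The annotation, the use of strand, the treatment of multi-mapped reads and any scaling between libraries are not given in the sources used here. Deposited values above 0.01 are rounded to 0.01.

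A gene was kept where both libraries reached an RPKM of 0.25 and was called at a ratio of at least 2 or at most 0.5, with no pseudocount, after the filter and fold of the study. No test was possible with 1 library per group. Depth was estimated from values under 0.01 RPKM, where 266 of 918 (PBS) and 312 of 1063 (exosome) features gave 1 read at one common total within 1%. Without gene lengths, 220 of 415 features gave a depth ratio of 1.20. Reads were then RPKM times depth times the longest GENCODE M21 transcript, which need not be the authors' gene model. The 95% intervals are Clopper-Pearson (ratios) or exact conditional (changes of balance), from Python 3.11.15 and scipy 1.17.1, and cover counting error only. Scripts were tested on simulated data.

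Members and lists were chosen with earlier results of these data known. All 9 members were named, and from other lists the genes past 2-fold and a fixed few. Some genes of the lists count in the totals but are not reported here by name. Alternatives were other scalings, pseudocounts, filters and a ratio of 1.5.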

Additional observations from a re-analysis of the deposited data

How the results depend on the processing

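No paired analysis was possible because each group holds 1 library. The count of 0 members down was kept under all alternatives, and 3 members up became 1 under median centring (Per2), under removal of the trimmed mean of log2 ratios (Per2) and under centring within level bins (Cry1). With a pseudocount of 0.25 or 1 the members up were Per2 and Cry1. The median log2 ratio of the members was -0.33 under median centring, -0.35 with the trimmed mean removed, -0.12 within level bins, 0.24 after TPM rescaling, 0.11 with a pseudocount of 1 and 0.61 at an RPKM of at least 1, where only 4 members were kept. Of the other clock genes, 5 up and 0 down became 2 up and 2 down (Csnk1e among them) under median centring and with the trimmed mean removed, and 1 up and 1 down within level bins. There were 3 up with a pseudocount of 0.25, 2 up with a pseudocount of 1 and 0 up at an RPKM of at least 1. With every RPKM above 0 admitted 3 were down (Npas2, Arntl2 and Hlf), and at a ratio of 1.5 there was 1 down (Csnk1e). Over all genes kept, 3056 up and 545 down became 1634 and 1282 under median centring, 1596 and 1321 with the trimmed mean removed, 1353 and 1301 within level bins, 1976 and 400 with a pseudocount of 1, and 1958 and 408 at an RPKM of at least 1. Admitting every RPKM above 0 gave 4508 and 1436, and a ratio of 1.5 gave 4585 and 1092. Of 67 single member values recomputed, 37 stayed within their counting interval and 30 moved out of it. A change of the filter alone cannot move a single ratio, so those values count among the 37 by construction. Sign was followed only for the called genes Clock, Per2 and Cry1, and 0 of their values changed sign. Members that were not called could change sign, as Per1 did from 0.13 to -0.40 under median centring. The setting within level bins was chosen after seeing the data. Low depth limits Nr1d1, Dbp, Arntl and Nr1d2 most.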

Other observations

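Genes through which outside signals reach the clock were read from a list of 10, all of them kept. Of these, 1 was up and 3 were down, with a median log2 ratio of 0.03. Over all genes kept the median was 0.53, 31.5% were up and 5.62% were down, and the counts of each list here are to be read beside these shares. Nr4a1, an immediate-early gene of a nuclear receptor, rose from 4.89 to 63.8 RPKM (log2 ratio 3.71, counting interval 3.60 to 3.81). Fos fell from 393.15 to 195.68 RPKM (log2 ratio -1.01, interval -1.03 to -0.99), Dusp1, a phosphatase gene, from 253.96 to 123.84 (-1.04) and Sgk1, a kinase gene, from 37.52 to 16.41 (-1.19). Of 11 genes under clock control in other tissues, 7 were kept, 1 was up (14.3%, beside 31.5% of all genes kept) and 1 was down (beside 5.62%). Fkbp5, a chaperone gene switched on by glucocorticoids, fell from 25.78 to 5.51 RPKM (log2 ratio -2.23), and Cdkn1a, a cell cycle inhibitor gene, rose from 5.29 to 12.77 (1.27).

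Cofactors of the clock proteins were read from a list of 12, all kept, with 2 up (16.7%, beside 31.5% of all genes kept), 0 down (beside 5.62%) and a median log2 ratio of 0.39 against 0.53. Among those up, Ddb1, an adaptor gene of a ubiquitin ligase, rose from 11.85 to 26.26 RPKM (log2 ratio 1.15). Ncor1, the corepressor that REV-ERB receptors recruit, was at 63.34 and 36.84 RPKM, a log2 ratio of -0.78, and was named after its values were seen.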
